A study of Homo sapiens with 4 samples.

Results

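Of the 42 genes described here, 40 encode nucleolar factors of ribosome biogenesis, and PUS1 and TBRG4 do not. The whole list was chosen by name, from gene symbols, with earlier results of these data known. Its 42 genes are called factors below. All 42 were found by symbol among the 63241 Ensembl genes of the deposited table, 1 row each. Their transcripts were measured in 22Rv1 cells, an established human line of castration-resistant prostate carcinoma. Cells received 40 nM JMC45 for 12 h (2 libraries) or the DMSO vehicle for 12 h (2 libraries). The labels say that JMC45 targets CDK9, and the series title names a CDK9 degrader under the code D45, read here as that agent. All cells grew in RPMI medium with fetal bovine serum, and poly(A)-selected RNA was sequenced. Whether the libraries of a group were grown separately is not stated in the labels. The p-values therefore cover the spread between libraries, and that spread may be technical. Values are TPM, a transcript abundance scaled by length and given as a share of each library.

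Ribosomes are assembled in the nucleolus, where RNA polymerase I transcribes a long precursor rRNA. Small nucleolar ribonucleoproteins (snoRNPs) of the box C/D class guide 2′-O-methylation of that precursor, and those of the box H/ACA class guide pseudouridylation. A large assembly called the small subunit processome folds and cleaves the part that becomes the 40S subunit, while other factors, among them the PES1-BOP1-WDR12 complex, build the 60S subunit. Many of the genes are known targets of the transcription factor MYC, and prostate cancer cells often have enlarged nucleoli. CDK9 is the kinase that releases paused RNA polymerase II into elongation.

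The libraries differed in more than these genes. Cytosolic ribosomal protein genes held 301800 and 285800 TPM in JMC45, against 187300 and 204100 TPM in vehicle, and mitochondrially encoded genes held 266200 and 293100 TPM in JMC45, against 204400 and 201200 TPM in vehicle. The median of the 14018 tested genes changed by -1.10 on the log2(TPM + 1) scale, so a gene can fall in TPM and still fall less than most. All 10 luminal prostate markers were above a mean of 1 TPM, with summed levels of 427 and 419 TPM in JMC45 and 1334 and 1308 TPM in vehicle. Of the markers of other cells, the 5 leukocyte genes summed to 0.49 and 0.70 TPM in JMC45 and to 1.75 and 1.76 TPM in vehicle. The 4 endothelial genes summed to at most 0.01 TPM in any library, and CD3E, CDH5 and KDR were listed at 0 in all 4. The 5 fibroblast and muscle genes summed to 3.44 and 5.14 TPM in JMC45 and to 4.40 and 3.84 TPM in vehicle, nearly all of it COL1A1 and ACTA2.

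All 42 factors fell in TPM, and they fell by very different amounts. The test was limma on log2(TPM + 1) over all genes with a mean of at least 1 TPM, which all 42 passed, with a Benjamini-Hochberg adjusted p under 0.05 over all genes tested. Among all genes tested, 80.7% were called lower and 4.25% higher, so the count of 42 of 42 lower is to be read against a general fall. In each of the 42, both JMC45 libraries lay below both vehicle libraries, as did 85.7% of all genes tested. The median change of the factors was -1.82, against -1.10 for all genes, and 32 of the 42 lay below the all-gene median. The added 1 TPM shrinks changes of low-level genes more, and with 0.1 TPM added instead the medians were -1.885 and -1.341, a narrower gap. For 33 of 42 the call came with a log2 change of -1 or below, against 54.3% of all genes. The changes ran from -3.10 for GRWD1 to -0.21 for NHP2. In bulk RNA, a loss in every cell and a larger loss in some of the cells cannot be told apart, nor can a loss per cell from a change in what else the library holds.

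After median-of-ratios scaling, which sets the typical gene to no change, 27 factors were lower and 9 higher, against 35.3% and 35.5% of all genes, and the median of the factors was -0.52. With ribosomal protein and mitochondrially encoded genes taken out and TPM recomputed, 37 were lower and 1 higher, against 65.2% and 11.8% of all genes, with a median of -1.38 against -0.79 for all genes. With mitochondrially encoded genes alone taken out, 41 were lower and 0 higher, against 76.4% and 6.01% of all genes. Direction is therefore given on both scales below for each group. The 42 transcripts together held 2512 TPM in each JMC45 library, against 5651 and 5548 TPM in vehicle. Per 1000 TPM of ribosomal protein transcripts, a ratio that a single scaling factor per library leaves as it is, they held 8.32 and 8.79 TPM in JMC45 and 30.2 and 27.2 TPM in vehicle, a 3.35-fold lower mean. That is -1.74 on the log2 scale, against -0.86 after quantile normalization, which does alter the ratio. The groups did not overlap in either quantity. The two-sided exact permutation test gave p = 0.33 for both, the smallest value that 2 libraries against 2 allow. The ribosomal protein sum in that ratio was itself higher in JMC45. As a share of TPM outside ribosomal protein and mitochondrially encoded genes, the 42 held 0.582% and 0.597% in JMC45. In vehicle that share was 0.929% and 0.933%, so the mean was 1.58-fold lower in JMC45 (exact permutation p = 0.33).

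**Figure D1:**
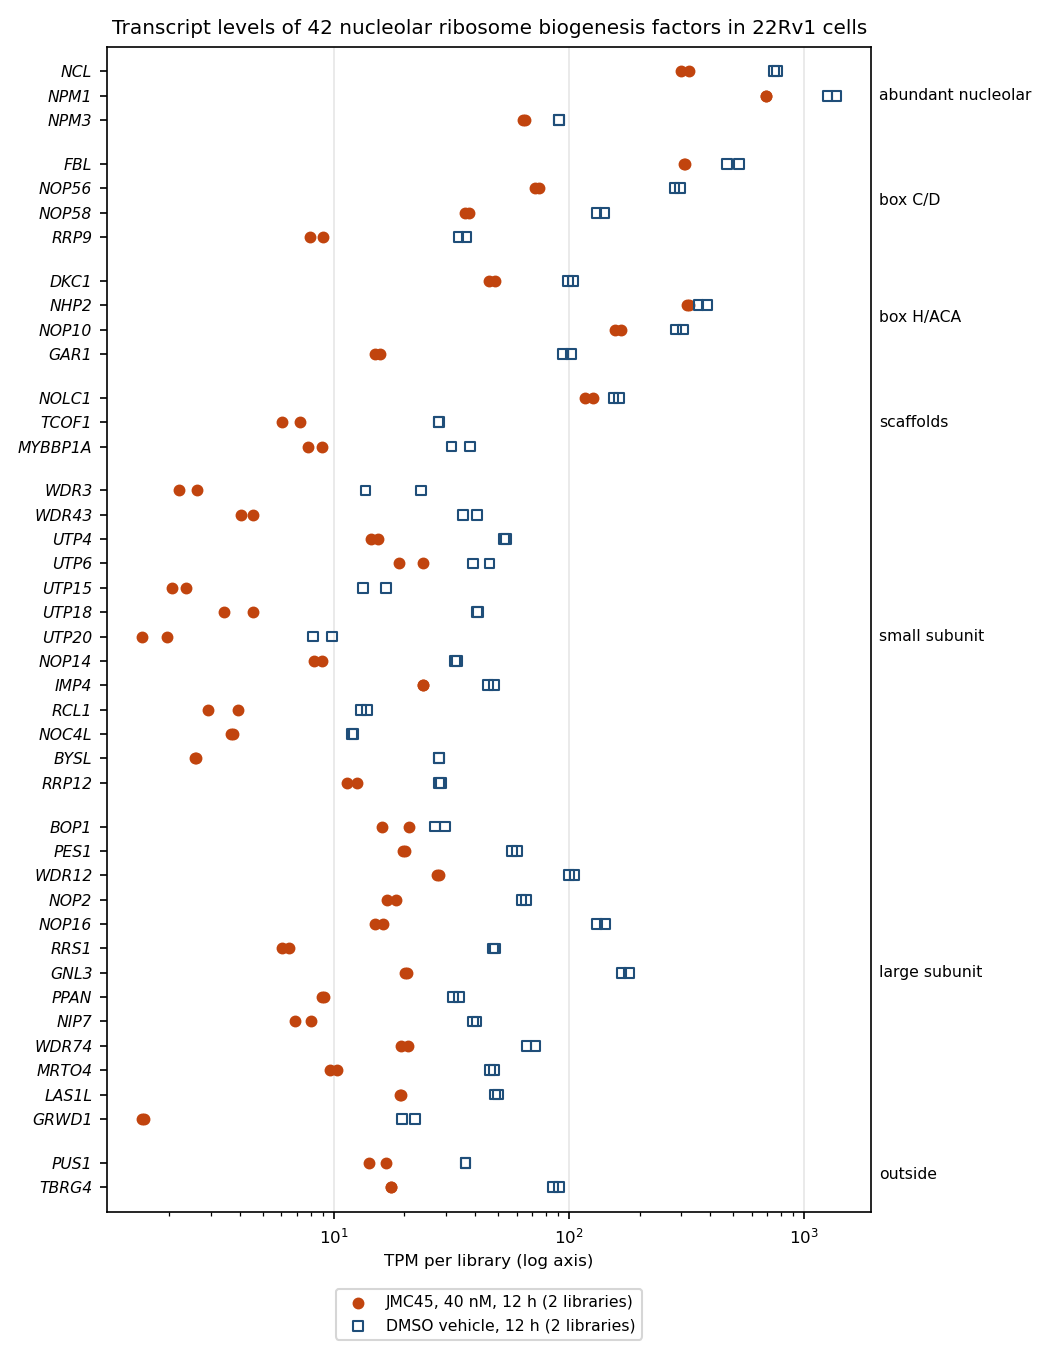
TPM of each of the 42 factors in each library on a log axis, with JMC45 as filled circles and vehicle as open squares, grouped by role. In every row both JMC45 libraries lie left of both vehicle libraries, and the gap is narrow for NHP2 and NOLC1 and wide for GRWD1, BYSL and UTP18.

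The abundant nucleolar proteins had a median change of -0.93, and NPM1 was the most abundant of the 42 transcripts in both groups. NPM1 encodes nucleophosmin, a histone chaperone and organiser of the outer nucleolus. It had 689.8 and 692 TPM in JMC45, against 1376 and 1261 TPM in vehicle. The JMC45 libraries agreed closely and lay well below vehicle, with a change of -0.93 (SE 0.06, limma adjusted p = 3.96e-05). NCL, nucleolin, which binds precursor rRNA and chromatin of the rRNA genes, had 299 and 324 TPM in JMC45, against 771 and 746 TPM in vehicle. Its change of -1.28 was larger than that of NPM1, and the ratio of NCL to NPM1 within a library was 0.434 and 0.469 in JMC45 and 0.560 and 0.592 in vehicle. NPM3, a smaller relative of nucleophosmin, had 65.1 and 63.6 TPM in JMC45, against 91.05 and 91.26 TPM in vehicle, a change of -0.50. All 3 were above 0 after median-of-ratios scaling, NCL at 0.08 without passing the test, NPM1 at 0.43 and NPM3 at 0.85. NPM1 has 49 annotated pseudogenes in the table, which summed to 6.96 and 5.47 TPM in JMC45 and 9.92 and 9.01 TPM in vehicle, so little of its signal was assigned to them, although reads shared with them make its level uncertain.

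Transcripts of the box C/D snoRNP proteins fell unevenly, and among the 4 on the list that of the methyltransferase changed least. FBL encodes fibrillarin, the enzyme that methylates rRNA. It had 313 and 309.8 TPM in JMC45, against 473 and 531 TPM in vehicle, a change of -0.68 (SE 0.07, limma adjusted p = 0.000205). NOP56 and NOP58 are the paired core proteins on which fibrillarin sits. NOP56 had 75.1 and 72.0 TPM in JMC45, against 282 and 298 TPM in vehicle (log2 change -1.96). NOP58 had 36.1 and 37.8 TPM in JMC45, against 142 and 131 TPM in vehicle (log2 change -1.86). The ratio of NOP58 to NOP56 was 0.481 and 0.525 in JMC45 and 0.504 and 0.441 in vehicle, and these values overlap (exact permutation p = 0.67). NOP56 over FBL was 0.240 and 0.232 in JMC45 and 0.596 and 0.561 in vehicle, without overlap (exact permutation p = 0.33). RRP9, a protein of the U3 snoRNP that the early cleavages of the precursor need, had 8.99 and 7.95 TPM in JMC45, against 36.7 and 34.0 TPM in vehicle, a change of -1.94. After median-of-ratios scaling NOP56, NOP58 and RRP9 were lower, with changes of -0.66 to -0.51, and FBL was higher at 0.68. SNU13, the remaining core protein of the box C/D snoRNP, is not among the 42 and was added after its value was seen, at 120 and 123 TPM in JMC45 and 167 and 166 TPM in vehicle (log2 change -0.45). Its change was smaller than that of FBL, and after median-of-ratios scaling it was higher at 0.90 (limma adjusted p = 0.000211).

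Of the 3 complexes described in full, the box H/ACA snoRNP had the widest range of changes. Its 4 core proteins are DKC1, NHP2, NOP10 and GAR1. GAR1 had 15.1 and 15.8 TPM in JMC45, against 94.9 and 102 TPM in vehicle, a change of -2.60 (SE 0.08, limma adjusted p = 9.66e-06). NHP2, an RNA-binding protein of the same particle, had 325 and 318 TPM in JMC45, against 357 and 386 TPM in vehicle, which is -0.21 on the log2 scale (SE 0.06, limma adjusted p = 0.0221). GAR1 thus kept 15.7% of its vehicle level and NHP2 86.6%. The call of NHP2 is the weakest of the 42: it was lost without JMC45 replicate 1 (-0.22), without JMC45 replicate 2 (-0.19) and without vehicle replicate 2 (-0.15), and NHP2 was higher after median-of-ratios scaling (1.15). DKC1, dyskerin, is the pseudouridine synthase and also part of telomerase. It had 45.7 and 48.55 TPM in JMC45, against 99.5 and 104 TPM in vehicle, a change of -1.10 that equals the all-gene median. NOP10 had 167 and 157 TPM in JMC45, against 305 and 285 TPM in vehicle, a change of -0.86. After median-of-ratios scaling GAR1 was lower at -1.28 and NOP10 higher at 0.50, while DKC1 at 0.25 did not pass (adjusted p = 0.0704). Within a library GAR1 over DKC1 was 0.330 and 0.326 in JMC45 and 0.953 and 0.982 in vehicle. GAR1 over NHP2 was 0.0464 and 0.0497 in JMC45 and 0.266 and 0.265 in vehicle, a 5.53-fold lower mean. Both ratios were without overlap, each at the smallest exact permutation p of 0.33.

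**Figure D2:**
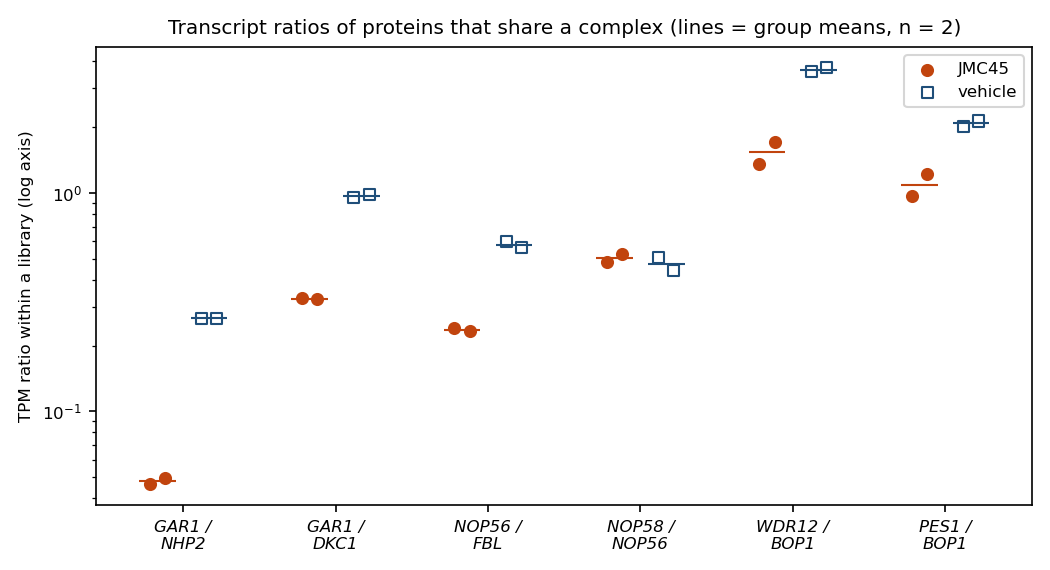
Ratio of the TPM of 2 transcripts within the same library, on a log axis, for proteins that share a complex, with JMC45 left (circles) and vehicle right (squares) and lines at the group means of 2 libraries. GAR1 over NHP2 averages 0.0481 in JMC45 and 0.266 in vehicle, whereas NOP58 over NOP56 overlaps between the groups.

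Of 3 nucleolar scaffold proteins, NOLC1 fell least, and TCOF1 and MYBBP1A fell by the same amount. NOLC1 (Nopp140) escorts snoRNPs through Cajal bodies and nucleoli. It had 117 and 126 TPM in JMC45, against 164 and 155 TPM in vehicle, a change of -0.39 (SE 0.07, limma adjusted p = 0.00221). TCOF1, the Treacher Collins syndrome protein treacle, which supports transcription by RNA polymerase I, had 7.21 and 6.04 TPM in JMC45, against 28.0 and 28.2 TPM in vehicle (log2 change -1.93). MYBBP1A, a nucleolar repressor of rRNA synthesis that also binds p53, had 7.82 and 8.95 TPM in JMC45, against 38.1 and 31.8 TPM in vehicle (log2 change -1.93). After median-of-ratios scaling NOLC1 was higher at 0.97, and TCOF1 and MYBBP1A were lower at -0.67 and -0.65.

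The 13 small subunit factors had a median change of -1.83, and 11 of them lay below the all-gene median. UTP18, a WD-repeat protein of the small subunit processome, had 4.53 and 3.42 TPM in JMC45, against 41.1 and 40.9 TPM in vehicle. That is 9.70% of the vehicle level and a change of -3.09 (SE 0.13, limma adjusted p = 1.17e-05). BYSL, bystin, which acts late in 40S maturation, had 2.58 and 2.59 TPM in JMC45, against 28.0 and 28.1 TPM in vehicle (log2 change -3.02). WDR43, another processome subunit (UTP5 in yeast), had 4.56 and 4.06 TPM in JMC45, against 40.9 and 35.6 TPM in vehicle (log2 change -2.88). In these 3 genes the replicates were close and the groups far apart. WDR3 was less even, with 2.21 and 2.62 TPM in JMC45 and 23.6 and 13.7 TPM in vehicle, and its change of -2.48 carried the largest standard error of the set (0.25).

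The small subunit factors that changed least were IMP4 and UTP6. IMP4, a U3-associated protein, had 24.05 and 24.0 TPM in JMC45, against 48.2 and 45.3 TPM in vehicle (log2 change -0.93). UTP6 had 24.0 and 19.0 TPM in JMC45, against 46.1 and 39.3 TPM in vehicle (log2 change -0.96). Both were higher after median-of-ratios scaling, at 0.39 and 0.36. The other members, the processome proteins UTP4, UTP15, UTP20, NOP14, NOC4L and RCL1 and the pre-40S export factor RRP12, fell by changes that ran from -2.32 for UTP15 to -1.18 for RRP12. After median-of-ratios scaling 10 of the 13 were lower and 2 higher, against 35.3% and 35.5% of all genes, and RRP12, at 0.12, did not pass.

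The 13 large subunit factors had a median change of -1.86, and 12 lay below the all-gene median. GRWD1, a histone-binding WD-repeat protein of 60S assembly, had 1.57 and 1.54 TPM in JMC45, against 22.2 and 19.5 TPM in vehicle. It kept 7.45% of its vehicle level, with a change of -3.10 (SE 0.12, limma adjusted p = 1.09e-05). The log2(TPM + 1) scale understates this change, since 1 TPM is close to the JMC45 level: the mean TPM was 13.4-fold lower. NOP16 had 16.2 and 15.1 TPM in JMC45, against 132 and 143 TPM in vehicle (log2 change -3.06). GNL3, nucleostemin, a nucleolar GTPase abundant in proliferating and stem cells, had 20.6 and 20.1 TPM in JMC45, against 180.3 and 168 TPM in vehicle (log2 change -3.04). NOP16 and GNL3 stand out by level: counted from the highest TPM among the 42, NOP16 ranked 21 in JMC45 and 9 in vehicle, and GNL3 ranked 14 in JMC45 and 7 in vehicle. RRS1, which brings the 5S ribonucleoprotein into the 60S precursor and has a single exon, changed by -2.76.

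The PES1-BOP1-WDR12 complex, needed for 60S maturation, had transcripts that fell unevenly. WDR12 had 28.2 and 27.45 TPM in JMC45, against 106 and 101 TPM in vehicle (log2 change -1.86). PES1, pescadillo, had 20.2 and 19.7 TPM in JMC45, against 60.1 and 57.5 TPM in vehicle (log2 change -1.51). BOP1 had 20.9 and 16.15 TPM in JMC45, against 29.7 and 27.0 TPM in vehicle, a change of -0.60 (SE 0.14, limma adjusted p = 0.00628) that did not pass without vehicle replicate 1 (-0.53, adjusted p = 0.0728). WDR12 over BOP1 was 1.35 and 1.70 in JMC45 and 3.57 and 3.73 in vehicle, and PES1 over BOP1 was 0.966 and 1.22 in JMC45 and 2.02 and 2.13 in vehicle. Neither ratio overlapped, each at the smallest exact permutation p of 0.33. After median-of-ratios scaling WDR12 was lower at -0.52, PES1 at -0.19 did not pass, and BOP1 was higher at 0.71.

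Among the other large subunit factors, LAS1L, part of the complex that removes the internal spacer of the precursor, changed least after BOP1, with 19.4 and 19.1 TPM in JMC45 and 48.45 and 49.9 TPM in vehicle (log2 change -1.31). NOP2, an rRNA cytosine methyltransferase, changed by -1.81, and MRTO4, which holds the place of the ribosomal stalk protein P0, by -2.14. NIP7 (-2.28), WDR74 (-1.74) and PPAN (-1.77), also of 60S assembly, lay in the same range. PPAN shares exons with an annotated readthrough gene. NOP16, GNL3, NIP7, IMP4, UTP15 and UTP4, among others, overlap genes on the opposite strand. The values of all these factors may hold reads of both genes. After median-of-ratios scaling 10 of the 13 were lower and 1, BOP1, was higher, against 35.3% and 35.5% of all genes. Together the large subunit transcripts kept 22.2% of their summed vehicle level and those of the small subunit 27.7%, against 44.7% for box C/D and 63.0% for box H/ACA. These sums follow their most abundant members, which are FBL for box C/D and NHP2 and NOP10 for box H/ACA. For the large subunit those in vehicle were GNL3 and NOP16, which both fell strongly. By median log2 change the large subunit (-1.86), the small subunit (-1.83) and box C/D (-1.90) were close, and box H/ACA was at -0.98.

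**Figure D3:**
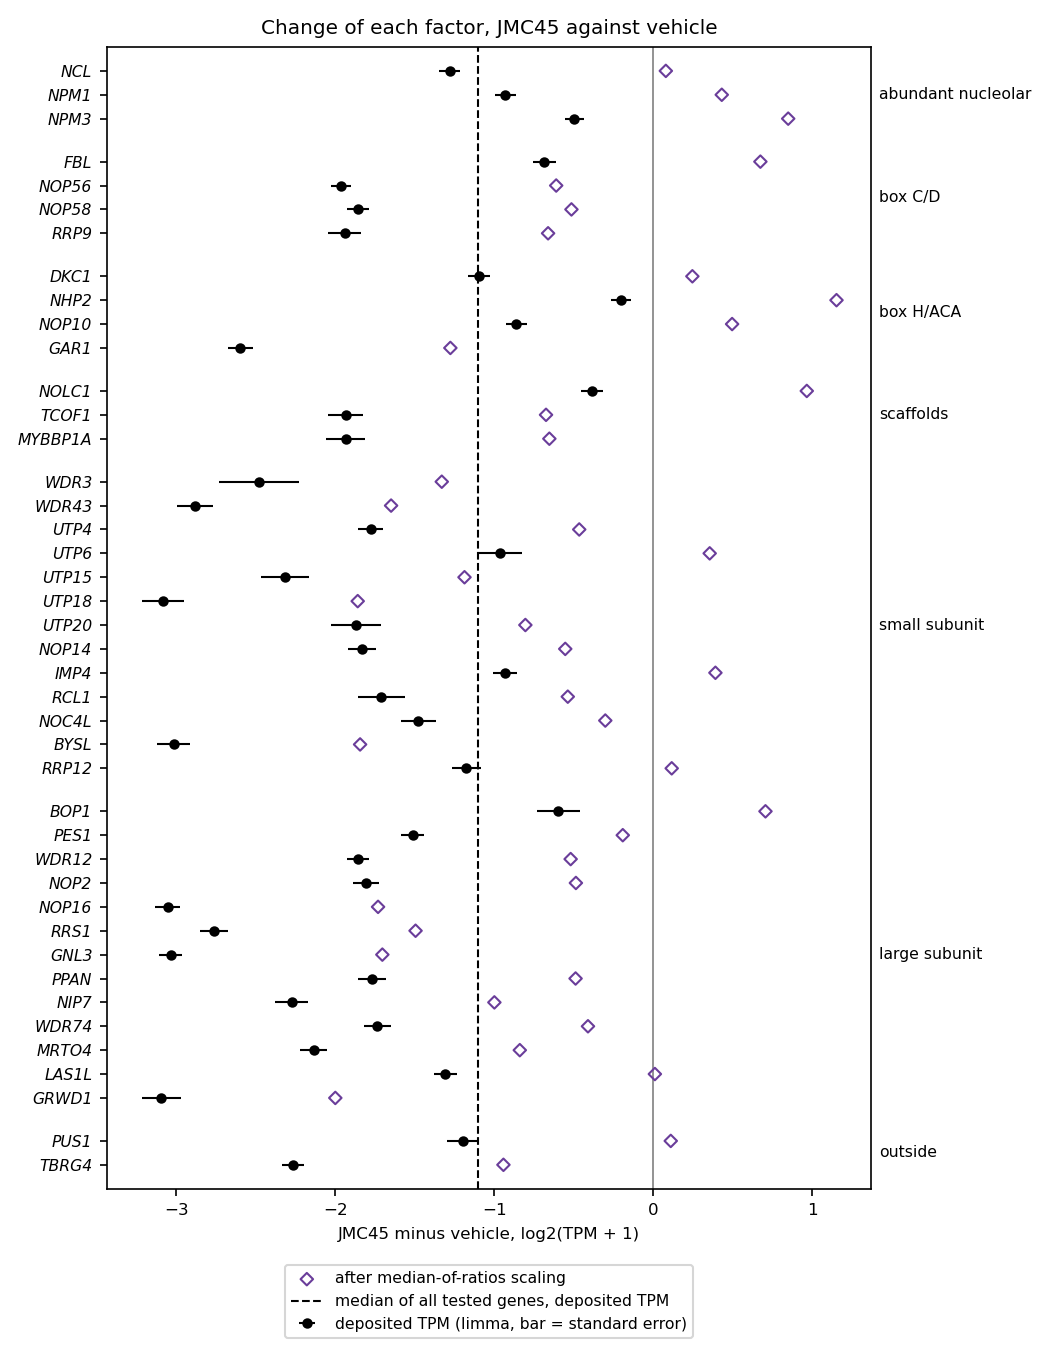
Log2 change of each factor, JMC45 minus vehicle, with deposited TPM as black circles and limma standard errors and the value after median-of-ratios scaling as open diamonds. All 42 circles lie below 0 and 32 lie left of the dashed all-gene median at -1.10, while the diamonds of NHP2, NOLC1 and NPM3 lie farthest above 0.

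The list also holds PUS1 and TBRG4, whose products are not nucleolar assembly factors. PUS1 is a pseudouridine synthase that modifies mainly tRNA, with 16.6 and 14.1 TPM in JMC45 and 36.4 TPM in both vehicle libraries (log2 change -1.20). TBRG4, also called FASTKD4, is a mitochondrial RNA-binding protein, with 17.6 TPM in both JMC45 libraries and 86.1 and 91.2 TPM in vehicle (log2 change -2.27). Both fell on deposited TPM. After median-of-ratios scaling TBRG4 was lower at -0.94, and PUS1, at 0.11, did not pass (limma adjusted p = 0.371). Without them the median of the remaining 40 was the same at -1.82.

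Promoters of some factors, with strong and with weak decreases, hold the canonical E-box CACGTG. This palindromic sequence is bound by MYC with MAX and by other helix-loop-helix factors. RefSeq windows of 300 bases (GRCh38.p14), from 250 bases before to 50 after an annotated transcript start, were found by symbol for 35 of the 42 genes. Of these 35, 17 (48.6%) had CACGTG in at least 1 window, against 12.9% of the 10006 tested genes with a window and 8.77% of all 27305 genes in the table. The other motifs searched on both strands were the palindromic NRF1 motif, in 8.57% of the factors and 2.80% of tested genes, CCAAT, in 51.4% and 43.9%, and GGGCGG, in 77.1% and 77.7%. The 17 genes with CACGTG had a median log2 change of -1.87, with a range from -3.09 to -0.68. The 18 without had a median of -1.75, with a range from -3.10 to -0.21. Among them are GRWD1 and NOP16, which rank 1 and 3 by size of decrease among the 42. The share with an E-box describes the genes on the list, many of which are known MYC targets, and is no measure of the response to JMC45. A link between the E-box and the change was not tested. The windows of the 4 genes with an E-box and the largest decreases are printed 5′ to 3′ on the gene's strand, with the E-box in capitals, to show where it lies. They are UTP18 at chr17:51260296-51260595, GNL3 at chr3:52685782-52686081, BYSL at chr6:41921249-41921548 and WDR43 at chr2:28894417-28894716, each on the plus strand.
UTP18: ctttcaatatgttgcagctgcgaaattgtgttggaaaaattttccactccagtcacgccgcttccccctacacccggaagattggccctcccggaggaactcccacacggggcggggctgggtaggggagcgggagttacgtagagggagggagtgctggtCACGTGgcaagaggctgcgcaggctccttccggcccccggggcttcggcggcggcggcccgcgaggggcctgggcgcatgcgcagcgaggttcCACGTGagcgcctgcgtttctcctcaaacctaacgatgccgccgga
GNL3: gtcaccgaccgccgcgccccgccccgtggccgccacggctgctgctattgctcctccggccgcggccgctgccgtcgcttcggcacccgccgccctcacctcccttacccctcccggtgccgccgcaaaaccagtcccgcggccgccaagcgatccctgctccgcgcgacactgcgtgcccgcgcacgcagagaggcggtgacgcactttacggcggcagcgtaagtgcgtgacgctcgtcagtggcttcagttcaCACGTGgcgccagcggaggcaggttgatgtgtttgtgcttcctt
BYSL: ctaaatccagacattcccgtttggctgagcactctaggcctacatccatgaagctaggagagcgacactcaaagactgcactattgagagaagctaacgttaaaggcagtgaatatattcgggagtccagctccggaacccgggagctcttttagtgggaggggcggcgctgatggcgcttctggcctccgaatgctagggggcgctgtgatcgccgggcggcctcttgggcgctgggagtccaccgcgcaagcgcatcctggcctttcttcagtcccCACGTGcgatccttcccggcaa
WDR43: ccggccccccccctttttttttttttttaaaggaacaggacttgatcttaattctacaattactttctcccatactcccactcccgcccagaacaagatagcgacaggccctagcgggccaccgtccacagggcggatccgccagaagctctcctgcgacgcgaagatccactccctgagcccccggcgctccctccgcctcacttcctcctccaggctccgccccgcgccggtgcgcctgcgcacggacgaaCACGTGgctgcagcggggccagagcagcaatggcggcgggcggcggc
UTP18 has 2 E-boxes, which begin 89 bases before and 4 bases after the annotated start. In GNL3, BYSL and WDR43 the single E-box begins 6, 28 and 3 bases after it. A match says only that these letters are present in the window.

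Gene structure ran little with the changes. Across the 42, Spearman's rho between the log2 change and gene span was -0.03, with the number of exons 0.00 and with transcript length -0.17, given as descriptions over genes that share the same 4 libraries. The same coefficients over 13461 tested genes with an entry were 0.00, 0.04 and -0.16. The factors had a median span of 14.1 kb and 13 exons, against 27.8 kb and 8 exons for all tested genes with an entry. For the 11561 protein-coding ones the medians were 32.8 kb and 9 exons, and the coefficients, in the order above, 0.06, 0.1 and -0.12. RRS1, with 1 exon, and UTP18, with 14, both fell strongly, and NOP10, with 2 exons, and NOLC1, with 13, fell weakly. Level in vehicle ran with the change at rho 0.30, against -0.06 over all tested genes with an entry. The 12 factors at 100 TPM or more in vehicle had a median of -1.19, the 20 between 30 and 100 TPM had -1.82 and the 10 below 30 TPM had -1.90. GNL3, NOP16, NOP56, NOP58 and WDR12 are exceptions among the abundant ones. In JMC45, 16 of the 42 averaged below 10 TPM, against 1, UTP20, in vehicle.

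Introns of 8 of the genes hold snoRNA genes, which are processed from the spliced-out intron: NCL, NOP56, NOP58, DKC1, GNL3, PPAN, WDR43 and TBRG4. Their 8 host transcripts had a median change of -1.91, and the other 34 one of -1.79. All 28 annotated snoRNA genes inside them on the same strand were listed at 0 in all 4 libraries. As background, these RNAs are short and not polyadenylated, and the libraries were poly(A)-selected.

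Most other factors of the same pathway also fell in TPM. Their list, like that of the 42, was chosen with earlier results of these data known, so it gives no independent support. A list of 109 ribosome biogenesis genes outside the 42, from the exosome, the processome, RNA helicases and 60S assembly, had 106 that fell and none that rose, against 80.7% and 4.25% of all genes. By limma at an unadjusted p under 0.05 the counts were 107 lower and 0 higher. The 3 that did not pass were DDX49 at -0.21, NOP53 at 0.03 and TSR2 at 0.11. The median was -1.86 and 91 of 109 lay below the all-gene median. Scaled by median of ratios, 72 were lower and 18 higher, against 35.3% and 35.5% of all genes. EXOSC3, IMP3 and NGDN decreased most. EXOSC3, a subunit of the RNA exosome, had 3.48 and 2.38 TPM in JMC45, against 45.0 and 51.0 TPM in vehicle (log2 change -3.65). IMP3, the partner of IMP4 on U3, had 4.66 and 3.99 TPM in JMC45, against 66.0 and 65.6 TPM in vehicle (log2 change -3.65). NGDN, neuroguidin of the small subunit processome, changed by -3.37. IMP3 and IMP4 lay far apart, at -3.65 and -0.93. Cytosolic ribosomal protein genes, the cargo of this machinery, had a median of 0.52, and 70 of 85 tested rose and 5 fell. After median-of-ratios scaling 83 of the 85 were higher and 2 lower, against 35.5% and 35.3% of all genes. After quantile normalization 34 were higher and 14 lower, against 33.6% and 32.8% of all genes, so the count higher was near the background on that scale.

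**Figure D4:**
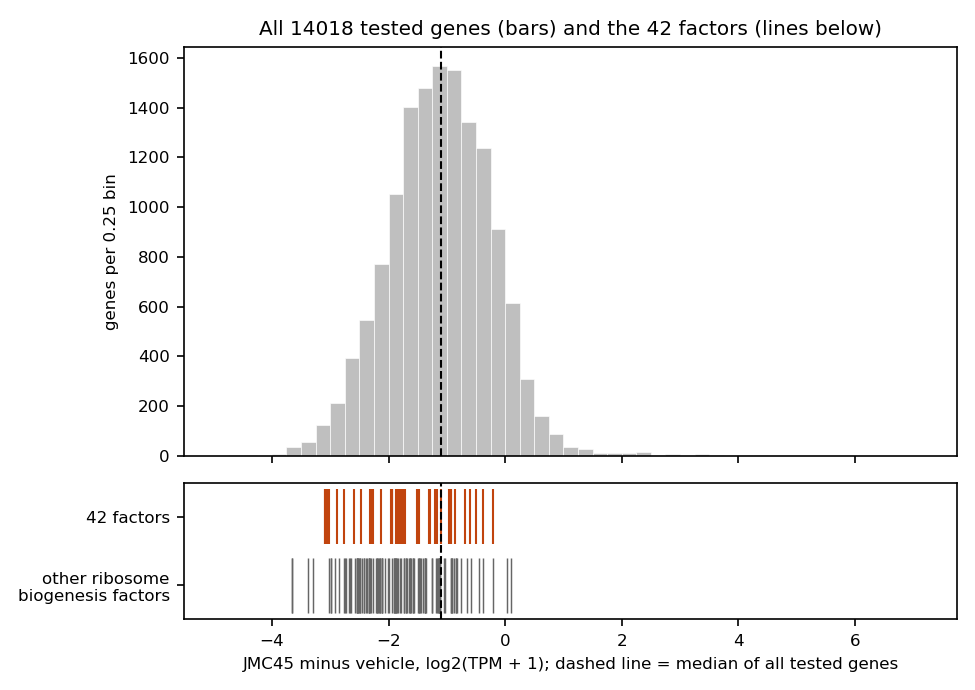
Histogram of the log2 change, JMC45 minus vehicle, over all tested genes in bins of 0.25, with a line for each of the 42 factors and each of the 109 other ribosome biogenesis genes underneath. Both sets lie mostly left of the dashed all-gene median, with medians of -1.82 and -1.86, and on the right they reach -0.21 and 0.11.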

How the data were processed

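Poly(A) RNA of 22Rv1 cells was sequenced in 2 JMC45 and 2 vehicle libraries. The authors deposited TPM per Ensembl gene and library, per the file headers. fastp, HISAT2 and StringTie are named, without roles or versions, per the submitters' processing notes. Genome build, annotation and use of strand in counting: not given in the sources used here. The library kit was stranded, per the labels' protocols. TPM keeps no depth, so depth is unknown and no counting intervals are given. Columns named CTL were taken as the vehicle libraries by name and number. 50 lines without values were left out.

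Symbols came from an Ensembl name table (62666 of 63241 IDs matched), gene structure from GENCODE release 29 as properties only, and promoter windows from RefSeq. Differences were tested two-sided with limma (version 3.58.1, R 4.3.3) on log2(TPM + 1), with an intensity trend, over the 14018 genes that averaged 1 TPM or more, adjusted by Benjamini-Hochberg with a threshold of 0.05. It was tested on simulated data. Sums and ratios were compared by an exact permutation test in scipy 1.17.1. Alternatives were a pseudocount of 0.1, no filter, a stricter filter at 5 TPM, quantile normalization, scaling by median of ratios, TPM without mitochondrially encoded genes and also without ribosomal protein genes, no trend, a replicate block, and each library left out. The named genes were all of the box C/D, box H/ACA and PES1-BOP1-WDR12 groups, NCL and NPM1, the 2 largest and 2 smallest changes of each other role, and the 3 largest decreases of the other pathway genes. WDR3, GNL3, WDR43 and the remaining members were described beyond that rule, after their values were seen. The members and lists were chosen with earlier results of these data known.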

Additional observations from a re-analysis of the deposited data

How the results depend on the processing

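Scaling decides the direction of the factors that fell least. After median-of-ratios scaling 27 factors were lower and 9 higher, and these were above 0: NHP2 (1.15), NOLC1 (0.97), NPM3 (0.85), BOP1 (0.71), FBL (0.68), NOP10 (0.50), NPM1 (0.43), IMP4 (0.39), UTP6 (0.36), DKC1 (0.25), RRP12 (0.12), PUS1 (0.11), NCL (0.08) and LAS1L (0.011), of which the 5 listed after UTP6 did not pass the test. The summed level of the 42 was 0.21 higher there on the log2 scale, against -1.16 on deposited TPM. After quantile normalization 32 factors were lower and 3 higher, against 32.8% and 33.6% of all genes, and BOP1 (0.55), NPM3 (0.24), NHP2 (0.14), UTP6 (0.11), NOLC1 (0.11), IMP4 (0.10) and RRP12 (0.061) were above 0. Without mitochondrially encoded and ribosomal protein genes 37 were lower and 1 higher, with NHP2 at 0.29 and NOLC1 at 0.11. Of the 109 other factors, 18 were higher with median-of-ratios scaling, 5 with quantile normalization, 2 without mitochondrially encoded genes and 3 without ribosomal protein genes as well, against 0 on deposited TPM. The shares of all genes higher under these 4 settings were 35.5%, 33.6%, 6.01% and 11.8%. The cause of these differences was not tested. The other settings left 41 or 42 factors lower and 0 higher, and NHP2 was the one lost with no filter, without mitochondrially encoded genes and with no intensity trend. Among all genes, 11272 of 14018 were lower and 585 higher with the pseudocount of 0.1. With no filter the counts were 13861 and 761 of 31100, and with the stricter filter 7554 and 461 of 9110. No intensity trend gave 11208 and 515 of 14018, and the replicate block 11380 and 613.

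Leaving out each library in turn kept every factor below 0, although the calls of NHP2 and BOP1 were not kept each time. The median of the factors then ran from -1.83 to -1.786, against -1.167 to -1.035 for all genes. The summed level then ranged from -1.17 to -1.14, and the sum over that of ribosomal protein genes from -1.82 to -1.67, against -1.74 with all libraries and -0.86 after quantile normalization. With the replicate number as a block 42 fell, as without it. Equal numbers did not deviate together (r = -0.05 across genes). This rests on a single difference per group, so it cannot decide whether equal numbers were grown or processed together. With 2 libraries per group and no depth, the precision of the lowest levels, such as GRWD1 in JMC45, is not known. Overlapping genes at a mean of at least 1 TPM lie on the same strand as 6 factors and on the opposite strand of 12, and reads there may be misassigned.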

Other observations

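Genes that overlap or adjoin a factor did not always move with it. The genes named here were chosen after their values were seen. PPAN-P2RY11, the annotated readthrough gene that joins PPAN to its downstream neighbour P2RY11, had 2.22 and 2.54 TPM in JMC45, against 0.79 and 0.43 TPM in vehicle. It rose by 1.08 on the log2 scale (SE 0.18, limma adjusted p = 0.00146), while PPAN had 9.10 and 8.92 TPM in JMC45 and 32.2 and 34.2 TPM in vehicle and fell. P2RY11, a purinergic receptor gene, had 8.05 and 6.16 TPM in JMC45 and 6.67 and 4.66 TPM in vehicle, which overlap (log2 change 0.29, limma adjusted p = 0.212). After median-of-ratios scaling P2RY11 was higher at 1.46 (limma adjusted p = 0.000322). PPAN and the readthrough gene share exons, so how the authors' quantification divided the reads between them was not tested.

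NOP16 overlaps HIGD2A, a mitochondrial respiratory supercomplex factor, on the opposite strand. HIGD2A had 188 and 176 TPM in JMC45, against 202 and 203 TPM in vehicle (log2 change -0.15, limma adjusted p = 0.0538), beside -3.06 for NOP16. IMP4 overlaps CCDC115, a factor of V-ATPase assembly, on the opposite strand, with 18.0 and 17.4 TPM in JMC45 and 19.0 and 17.4 TPM in vehicle (log2 change -0.04, limma adjusted p = 0.705), beside -0.93 for IMP4. GNL3 and its opposite-strand neighbour GLT8D1, a glycosyltransferase gene, both fell, by 3.04 and 1.95 on the log2 scale. ANKRA2, on the opposite strand of UTP15, changed by -2.62, beside -2.32 for UTP15. COG8, on the opposite strand of NIP7, changed by -2.54, beside -2.28 for NIP7. After median-of-ratios scaling HIGD2A was higher at 1.20 (limma adjusted p = 9e-05) and CCDC115 at 1.25 (limma adjusted p = 7.74e-05), while GNL3 and GLT8D1 were lower at -1.70 and -0.63.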
